A study of Mus musculus with 10 samples.

Results

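The members described here are 5 chemokine system genes in single cells of SW1 melanomas, namely the Cxcr3 ligands Cxcl9 and Cxcl10, their receptor Cxcr3, the chemokine Cxcl13 and its receptor Cxcr5. They are 5 of the 32285 genes of the matrices. They were chosen by their shares of positive barcodes and their summed levels in these same libraries, so those values are a description. SW1 is a mouse melanoma line that was grown under the skin of C3H/HeJ mice, from which CD45+ cells were sorted and loaded on the 10x platform. The 5 gene expression libraries came from pretreatment mice (control day 0), from mice given plain water for 7 or 21 days (the control groups) and from mice given L-fucose (L-fuc, a dietary sugar) in their water for as long. Mice were 4 to 6 weeks old. Tumors grew before treatment for 10 days by the labels and 14 by the methods. The dose is written as 100 mM in one protocol and 100 nM in another. The libraries of days 7 and 21 pooled 5 or 6 mice, depending on the protocol, and the day 0 library pooled 3. The comparison asks how tumor immune cells changed with L-fuc over time. Each condition is 1 pooled library, so no test was possible and no p-value is given. All intervals are exact 95% intervals that cover counting error only, not the spread between mice.

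Chemokines are small secreted proteins that draw cells bearing the matching receptor. Cxcl9 and Cxcl10 are induced by interferons, Cxcl9 mainly by interferon gamma and Cxcl10 also by type I interferons and inflammatory signals, and both draw activated T cells and NK cells through Cxcr3. Cxcl13 draws Cxcr5-bearing B cells and follicular helper T cells and is known for organising lymphoid follicles.

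The 3 ligand genes lie on chromosome 5 (GRCm38, GENCODE vM21). Cxcl9 spans chr5:92321347-92328079 and Cxcl10 chr5:92346638-92348889, both on the minus strand with 18558 bases between them. Cxcl13 spans chr5:95956951-95961068 on the plus strand, 3608061 bases from Cxcl10. Cxcr3 lies at chrX:101731535-101734269 and Cxcr5 at chr9:44511787-44561877, both on the minus strand. RefSeq promoters (GRCm38.p6) were found for 4 of the 5 members. The 250 bases before the start of each ligand gene are shown, since Cxcl10 differed from Cxcl9 and Cxcl13 in which cells held it. Each runs 5′ to 3′ on the gene's strand, and capitals mark motif matches. Their windows are chr5:92328080-92328329, chr5:92348890-92349139 and chr5:95956689-95956938.
Cxcl9: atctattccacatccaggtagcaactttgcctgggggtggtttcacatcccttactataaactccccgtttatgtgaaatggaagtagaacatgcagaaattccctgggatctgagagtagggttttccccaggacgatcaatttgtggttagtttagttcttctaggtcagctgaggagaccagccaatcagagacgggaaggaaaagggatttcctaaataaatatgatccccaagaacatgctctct
Cxcl10: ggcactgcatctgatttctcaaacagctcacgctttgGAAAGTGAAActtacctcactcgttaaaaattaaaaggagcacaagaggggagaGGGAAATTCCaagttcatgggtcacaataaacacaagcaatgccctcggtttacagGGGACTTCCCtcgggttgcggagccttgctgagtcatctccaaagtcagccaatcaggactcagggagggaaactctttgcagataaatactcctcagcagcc
Cxcl13: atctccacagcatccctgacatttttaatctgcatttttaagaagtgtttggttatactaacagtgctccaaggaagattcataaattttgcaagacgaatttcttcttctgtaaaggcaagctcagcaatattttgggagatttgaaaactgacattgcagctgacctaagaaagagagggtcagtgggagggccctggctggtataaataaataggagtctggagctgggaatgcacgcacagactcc
Both strands were searched for the interferon gamma activated site (GAS, TTCNNNGAA), the interferon-stimulated response element (ISRE, GAAA, any 2 bases and GAAA again) and the NF-κB site. In the Cxcl10 window the search found the ISRE match GAAAGTGAAA, 213 to 204 bases before the start, and the NF-κB matches GGGAAATTCC at 159 to 150 and GGGACTTCCC at 103 to 94 bases. The 2 NF-κB matches do not overlap the ISRE match. The other windows held none of these letters. Of 32851 promoters of this length, 7.02% held a GAS match, 2.98% an ISRE match and 3.90% an NF-κB match. A match describes the letters and says nothing of binding or of which cells held the transcripts.

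Barcodes with at least 200 genes and at most 10% mitochondrial UMIs (unique molecular identifiers, each 1 captured transcript) were kept, which left between 1236 and 19298 barcodes per library of 1428 to 20741 deposited. Gates were set by transcript. Macrophages held at least 3 UMIs of C1qa, C1qb and C1qc, T cells at least 2 of Cd3e, Cd3d and Cd3g, and tumor cells at least 1 of Sox10 with none of Ptprc (CD45). All others formed the fourth group. Series of 5 values are given in the order day 0, day 7 of control then of L-fuc, and day 21 of control then of L-fuc. The gates held 644, 4984, 4570, 1163 and 643 macrophages. They held 486, 1525, 1851, 67 and 50 T cells, and 270, 9137, 3114, 498 and 325 tumor cells, although CD45+ cells were sorted. Some barcodes passed more than 1 gate, and no doublet caller was run. Barcodes of both the macrophage and T cell gates were between 21.6% and 48.7% of the T cell gate. Barcodes of both the macrophage and tumor gates numbered 4, 1494, 365, 28 and 41. Values for barcodes of 1 gate alone are therefore given beside the main ones. Levels are UMIs of the gene per 1000000 UMIs of the gated barcodes (CPM). The summed level of 6 macrophage markers in the macrophage gate was 22204, 7924, 10892, 25237 and 18867 CPM, lowest in control day 7. Tumor markers there reached 2456 CPM in control day 7 against 836 in L-fuc day 7, and red-cell markers 1354 against 5648. The day 7 libraries shared 324 barcode sequences, and 510 were shared by any pair.

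**Figure D1:**
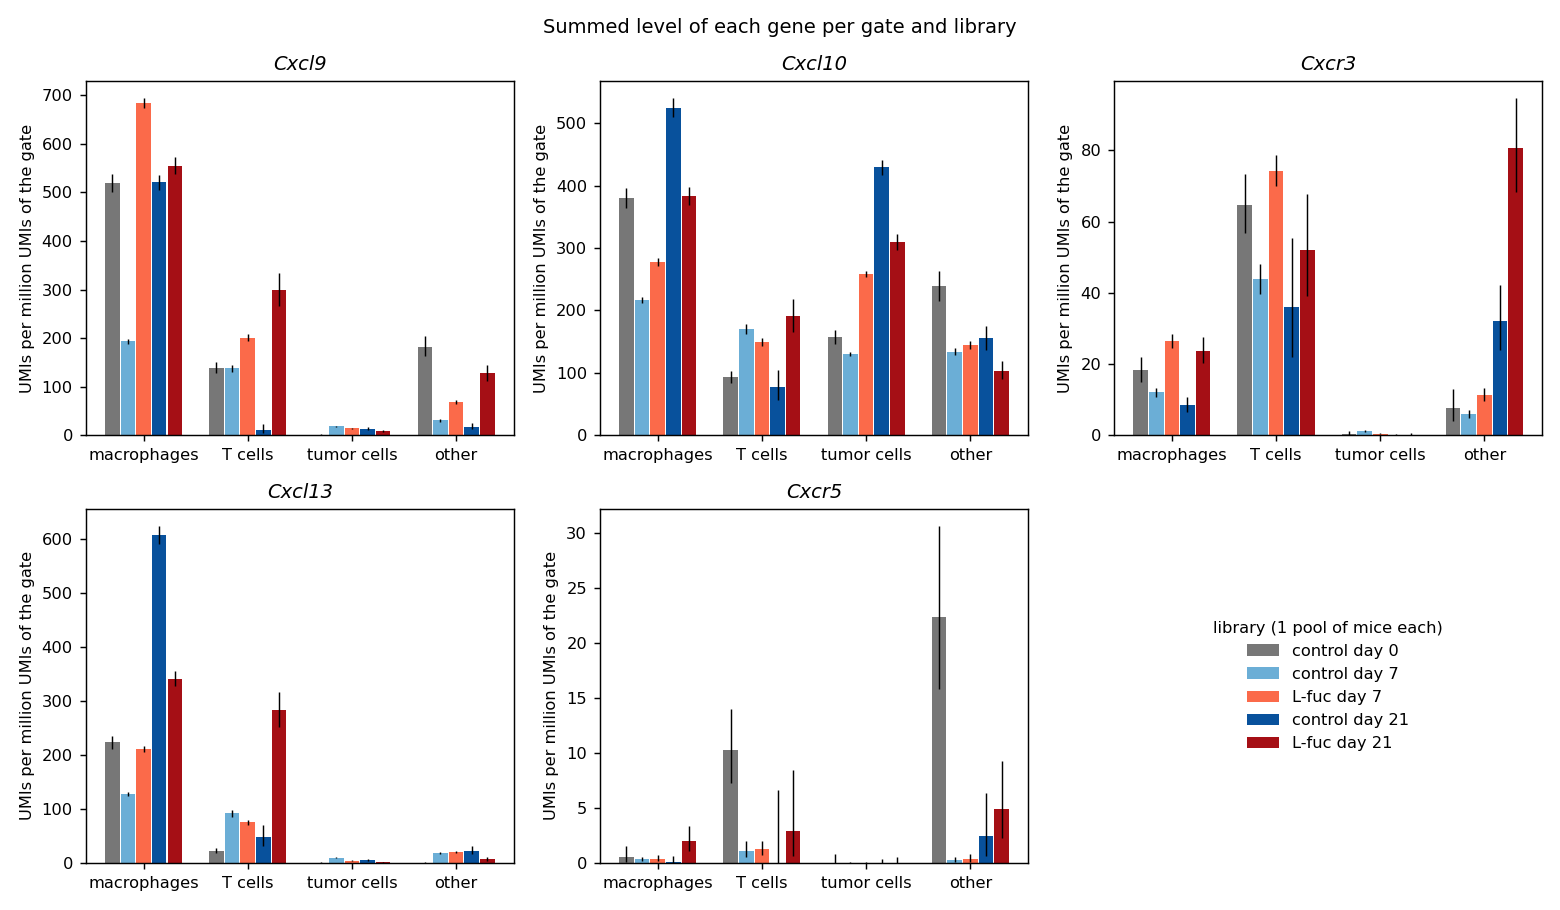
Levels of the 5 genes in each gate and library, as CPM on linear axes that differ between genes, with exact Poisson 95% intervals. Among these gates, Cxcl9 and Cxcl13 were highest in macrophages, and Cxcl10 lay in macrophages, tumor cells and other barcodes. Other barcodes held 238 and 134 CPM of Cxcl10 in control day 0 and control day 7. Tumor cells of 1 gate, not shown here, held 161 and 133 CPM of it there. Cxcr3 was highest in T cells in 4 of the 5 libraries, the exception being L-fuc day 21, with 80.7 CPM in other barcodes. T cells of 1 gate, not shown here, held 127 CPM in L-fuc day 21. In control day 21 the interval of other barcodes (24.0 to 42.2 CPM) overlapped that of T cells.

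The ligands differed in where their transcripts lay. Cxcl9 and Cxcl13 were mostly in macrophages. Of all Cxcl9 UMIs, 74.9%, 57.3%, 76.9%, 96.0% and 85.1% were in barcodes of the macrophage gate alone, and of Cxcl13 UMIs 93.5%, 60.1%, 73.8%, 97.6% and 86.7%. Cxcl10 UMIs lay in both the macrophage gate and the tumor gate, which differed in size. The tumor gate alone was 15.8%, 38.9%, 22.1%, 23.6% and 22.6% of kept barcodes, and macrophages alone 32.2%, 14.5%, 27.8%, 56.4% and 47.4%. Barcodes of the tumor gate alone held 21.1%, 43.4%, 50.9%, 48.7% and 41.7% of Cxcl10 UMIs, and macrophages alone 56.3%, 23.3%, 24.8%, 46.0% and 49.6%. In control day 7 the tumor gate alone held 133 CPM of Cxcl10, against 134 CPM in other barcodes. The part of gate size in the UMI shares was not tested. Among other barcodes, monocytes (at least 3 UMIs of Plac8 and Ly6c2) held 717, 699, 471, 59.3 and 139 CPM of Cxcl10. They held 621, 162, 177, 14.8 and 0 CPM of Cxcl9, in 39, 55, 76, 11 and 5 barcodes.

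**Figure D2:**
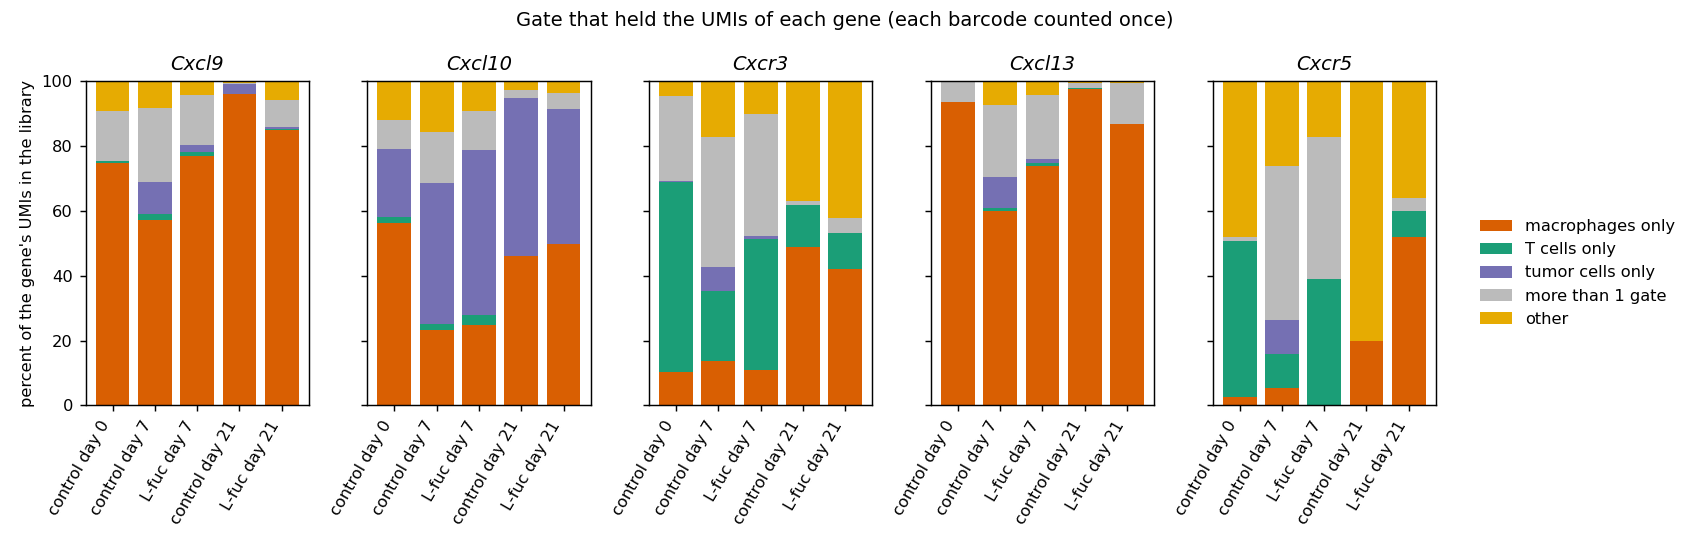
Share of each gene's UMIs by gate in each library, in percent, with barcodes of more than 1 gate shown apart. The tumor cell share of Cxcl10 was between 21.1% and 50.9%, while that of Cxcl9 was at most 9.70%.

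Cxcl9 in macrophages was lower in control day 7 than in the other 4 libraries. Its level was 519 CPM (501 to 538) in control day 0 and 194 CPM (189 to 198) in control day 7. It was 685 CPM (675 to 695) in L-fuc day 7, 521 CPM (505 to 536) in control day 21 and 555 CPM (537 to 572) in L-fuc day 21. The interval of control day 0 overlapped those of both day 21 libraries, and L-fuc day 7 was the highest. The L-fuc level was 3.54-fold that of control at day 7, a log2 ratio of 1.82 (1.78 to 1.86), and at day 21 the log2 ratio was 0.09 (0.03 to 0.15). Of the 5 members, Cxcl9 and Cxcr3 were past 2-fold in macrophages at day 7, where 21.1% of the 15770 genes compared were past 2-fold in either direction and the median gene stood at -0.23. In macrophages of 1 gate Cxcr3 was not past 2-fold at day 7, at 7.13 CPM in control and 10.7 CPM in L-fuc, a log2 ratio of 0.59 (0.22 to 0.97). At day 21, 8.66% of genes were past 2-fold in macrophages, and of the members Cxcr3 and Cxcr5 were, the latter with 1 UMI in control and 14 in L-fuc.

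The share of macrophages with a Cxcl9 UMI was 39.1%, 24.2%, 37.6%, 31.2% and 33.1%. In T cells of 1 gate, which are not a known source of this chemokine, it was 2.38%, 9.08%, 8.15%, 4.26% and 3.45%, at median depths of 2664 to 5102 UMIs against 1958 to 4776 in macrophages. When each macrophage was thinned to 1000 UMIs the shares were 23.6%, 10.4%, 24.2%, 17.6% and 19.6%, with control day 7 again lowest. In macrophages of 1 gate alone the levels were 575, 319, 1038, 559 and 564 CPM, and the log2 ratios 1.70 at day 7 and 0.01 at day 21. Per UMI of the macrophage markers, a scaling chosen after the values were seen, the day 7 ratio was 1.36, and with at least 10 C1q UMIs per barcode it was 1.16. At day 21 the direction turned when barcodes were thinned, to -0.70. The part of the macrophage, tumor and red-cell markers in these differences was not tested.

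A minority of macrophages held most Cxcl9 transcripts. The 5% of macrophages with most Cxcl9 held 61.7%, 76.6%, 72.5%, 76.5% and 80.9% of its UMIs. Among macrophages of 1 gate, those with at least 10 UMIs of the class II antigen presentation genes H2-Aa, H2-Ab1 and Cd74 (class II-high) held 590, 383, 1136, 611 and 594 CPM of Cxcl9, and those with less held 412, 93.1, 281, 129 and 62.0 CPM. Macrophages with at least 2 UMIs of Arg1, the arginase of alternatively activated macrophages, held 378, 265, 647, 122 and 456 CPM against 699, 327, 1102, 601 and 598 CPM in those without. Both gaps in CPM went the same way in all 5 libraries. Thinned to 1000 UMIs, the share with a Cxcl9 UMI was again higher in class II-high macrophages in all 5, whereas for Arg1 it was 18.8%, 14.9%, 20.3%, 8.11% and 20.8% against 28.1%, 13.7%, 30.2%, 18.7% and 19.8% without, so the order turned in control day 7 and L-fuc day 21. Macrophages with the fractalkine receptor transcript Cx3cr1 held 501 CPM against 205 CPM at control day 7 and 1422 against 667 CPM at L-fuc day 7. Barcodes with the marker were deeper in every split named here, for example at medians of 4774.5 against 1704 UMIs for class II in control day 7, and the part of depth in these gaps was not tested.

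**Figure D3:**
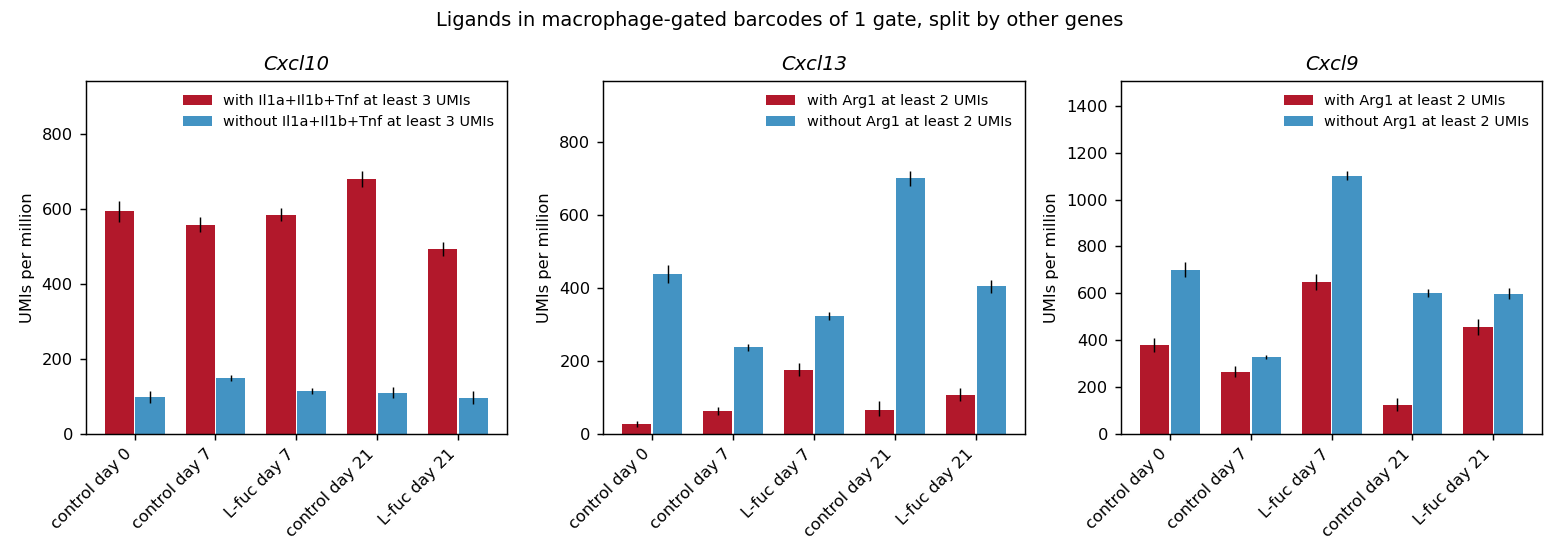
Levels in macrophages of 1 gate, as CPM with exact Poisson 95% intervals, of Cxcl10 split by at least 3 summed UMIs of Il1a, Il1b and Tnf (left), and of Cxcl13 (middle) and Cxcl9 (right) split by at least 2 UMIs of Arg1, with red for barcodes that hold the marker and blue for the rest. In all 5 libraries Cxcl10 was higher with the cytokine transcripts, and Cxcl13 and Cxcl9 were lower with Arg1.

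Genes that stood highest in Cxcl9-bearing over other macrophages in the day 7 libraries were led by Il12b, the shared subunit of interleukin 12 and 23, with log2 ratios of 3.03 in control and 4.47 in L-fuc. They further included Dnase1l3, a secreted nuclease (2.92 and 2.58), Tlr12, a receptor for profilin (2.16 and 2.26), Slamf8 (2.10 and 2.05), Il27, a cytokine subunit (1.87 and 2.45), the chemokine Ccl8 (1.87 and 2.12) and the complement genes Cfb (1.95 and 1.99) and C3 (1.81 and 1.98). H2-M2 and the immunoglobulin segment Ighv5-17 completed the 10. Among macrophages of 1 gate, Dnase1l3, Il12b and Ighv5-17 led, and Tlr12 and Slamf8 stayed among the 10 highest. Il27, Ccl8, Cfb, C3 and H2-M2 were not among those 10. Cxcl9-bearing macrophages were deeper, at medians of 5688 against 4510.5 UMIs in control day 7 and 4100 against 1919 in L-fuc day 7.

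Cxcl10 in macrophages stood at 380 CPM (364 to 396), 217 (212 to 222), 277 (270 to 283), 525 (509 to 540) and 383 (368 to 398). Control day 0 and L-fuc day 21 had overlapping intervals, and control day 21 was the highest. At day 7 L-fuc was higher than control, with a log2 ratio of 0.35 (0.30 to 0.40), and at day 21 lower, with -0.45 (-0.53 to -0.39). The day 7 ratio was 0.19 in macrophages of 1 gate and changed sign per UMI of the macrophage markers (-0.11) and with at least 10 C1q UMIs (-0.09). Per marker UMI the day 21 ratio was -0.04. The part of the marker levels in these ratios was not tested.

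The share of macrophages with a Cxcl10 UMI went the other way at day 7. It was 22.0%, 29.9%, 21.3%, 22.2% and 26.6%, and after thinning between 10.7% and 14.3%. Within macrophages of 1 gate, Cxcl10 was split by inflammatory cytokines. Those with at least 3 summed UMIs of the cytokine genes Il1a, Il1b and Tnf held 594, 558, 585, 679 and 493 CPM, and those with fewer held 96.7, 149, 114, 109 and 96.4 CPM. After thinning, 25.8%, 24.2%, 21.8%, 24.1% and 19.7% of the former had a Cxcl10 UMI against 5.39%, 10.1%, 7.95%, 4.48% and 7.94% of the latter. This gap was present in all 5 libraries. Class II-low macrophages held less Cxcl10 than class II-high ones in 4 of the 5 libraries, the exception being control day 0, at 847 against 400 CPM.

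Tumor cells held Cxcl10 at 157 CPM (146 to 169), 130 (127 to 133), 259 (254 to 264), 429 (417 to 442) and 309 (297 to 322). All 5 intervals were apart, and both day 21 libraries were above both day 7 libraries. L-fuc stood over control by a log2 ratio of 0.99 (0.95 to 1.03) at day 7 and -0.47 (-0.54 to -0.40) at day 21, and in barcodes of the tumor gate alone 0.97 and -0.48. The day 7 fold was 1.99. Of the members in tumor cells, Cxcr3 and Cxcl13 were past 2-fold lower at day 7, against 7.93% of genes past it in either direction, and Cxcl13 was at day 21, against 5.46%. In barcodes of the tumor gate alone the day 21 ratio of Cxcl13 was under 2-fold, with 11 UMIs in control and 4 in L-fuc, while Cxcl9 passed it there, at 13.8 CPM in control and 4.91 CPM in L-fuc. Cxcr3 and Cxcl13 were at most 10.0 CPM in tumor cells. The share of tumor cells with a Cxcl10 UMI was 36.3%, 29.2%, 40.4%, 50.4% and 53.5%, at median depths of 16760.5, 7332, 13530.5, 21791.5 and 22897 UMIs. Thinned to 1000 UMIs it was 9.51%, 8.18%, 13.2%, 21.6% and 19.3%.

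Cycling tumor cells (Mki67 or Top2a, proliferation genes) held more Cxcl10 than others in 4 libraries, at 210 against 126, 165 against 96.8, 356 against 185 and 358 against 193 CPM at control day 0, control day 7, L-fuc day 7 and L-fuc day 21. In control day 21 they held less, 396 against 461 CPM. This split of the tumor cells was chosen after the values were seen. The cells with the marker were deeper in every library, and the part of depth was not tested. Among 11206 genes compared in the day 7 libraries, those highest in Cxcl10-bearing tumor cells included the interferon-induced genes Ifit3 (1.96 in control and 2.01 in L-fuc), Ifit3b (1.87 and 2.14), Ifit1 (1.65 and 1.82), Gbp2b (1.61 and 1.73) and Gbp4 (1.55 and 1.65). The mitosis genes Ube2c (1.62 and 2.66) and Aurkb (1.53 and 2.82) were also among the 10, with Mxd3, Aunip and Gm12185. This ranking was added after the values were seen. Both it and the cycling split used barcodes of the tumor gate alone. Cxcl10-bearing tumor cells were deeper, at medians of 8971.5 against 6723 UMIs in control day 7 and 16438.5 against 12347 in L-fuc day 7. The part of depth in the ranking was not tested.

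The interferon gamma list of 25 receptor, signalling and target genes was mostly higher in L-fuc at day 7. In macrophages all 23 of its genes that could be compared were higher in L-fuc, 2 of them past 2-fold (8.61% of all genes were), with a median log2 ratio of 0.54 against -0.23 for all genes. These were Irf8, a myeloid transcription factor (1.23), and the chemokine Ccl5 (1.41). In macrophages of 1 gate 20 of 23 were higher, 1 past 2-fold (3.29% of all genes were), with a median of 0.39 against -0.32 for all genes. In tumor cells 18 of 23 were higher, 9 past 2-fold (2.83% of all genes were), and 1, the nitric oxide synthase Nos2, was past 2-fold lower (5.11% were), with a median of 0.88 against -0.04. Tumor cell examples were the guanylate-binding proteins Gbp4 (1.38) and Gbp5 (1.20), the GTPase Igtp (1.16), the immunoproteasome subunit Psmb8 (1.12) and the class II activator Ciita (1.06). The tumor cell values are for all barcodes of the tumor gate, and the gate alone was not computed for the lists. At day 7, 16.4% of that gate in control and 11.7% in L-fuc also passed the macrophage gate, and their part was not tested. At day 21 the list was lower in macrophages in 15 of 23 genes, with a median of -0.12 against 0.01 for all genes, and in tumor cells 14 of 22 were higher, with a median of 0.05 against 0.00043. These are log2 ratios of 1 library over another. Ccl5 is also on the type 1 lymphocyte list of 12 genes given below. In macrophages at day 7 all 12 of these were higher in L-fuc, 11 past 2-fold (8.61% of all genes were). In macrophages of 1 gate 11 of 12 were higher, 4 past 2-fold (3.29% of all genes were). Barcodes that also passed the T cell gate were 14.9% of the macrophage gate in control day 7 and 18.3% in L-fuc day 7. Their part in these values was not tested.

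**Figure D4:**
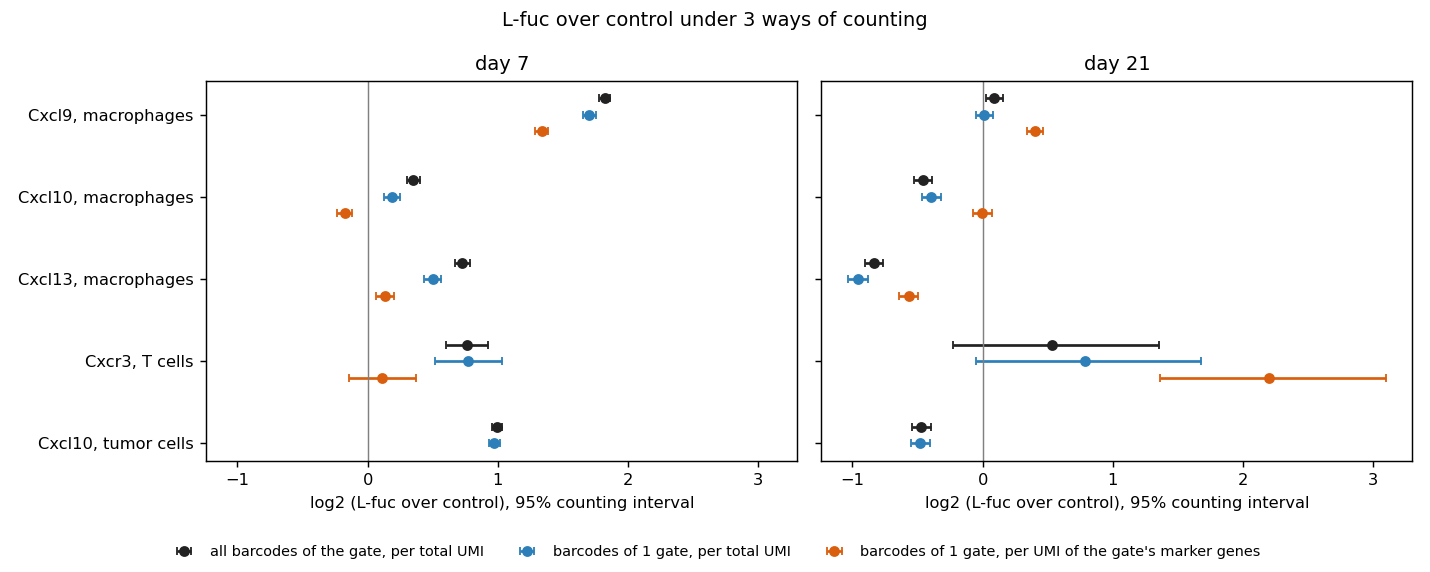
Log2 ratio of L-fuc over control for each ligand in macrophages, Cxcr3 in T cells and Cxcl10 in tumor cells, at day 7 (left) and day 21 (right), with exact 95% intervals. Black points are all barcodes of the gate and blue points those of 1 gate, both per total UMI, and orange points are barcodes of 1 gate per UMI of the gate's marker genes, which was not computed for tumor cells. At day 7 all black and blue points were above 0, Cxcl9 the highest at 1.82, while the orange point of Cxcl10 in macrophages was below 0, at -0.18. At day 21 the black and blue points of Cxcl10 and Cxcl13 were below 0.

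Cxcl13 in macrophages was highest in control day 21. Its level was 223 CPM (211 to 236), 127 (123 to 131), 211 (205 to 216), 608 (592 to 625) and 341 (327 to 355). The intervals of control day 0 and L-fuc day 7 overlapped. At day 7 L-fuc was higher, with a log2 ratio of 0.73 (0.67 to 0.79), and at day 21 lower, with -0.84 (-0.91 to -0.76). In macrophages of 1 gate the ratios were 0.50 and -0.96, and without shared barcodes the day 21 ratio was -1.01. With at least 10 C1q UMIs per barcode the day 7 ratio was 0.0038. Per UMI of the macrophage markers the ratios were 0.27 at day 7 and -0.42 at day 21, and the part of the marker levels was not tested.

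The share of macrophages with Cxcl13 was 10.2%, 14.2%, 18.3%, 24.2% and 19.3%, and in tumor cells 0.370%, 6.07%, 3.66%, 4.82% and 2.15%. Few macrophages carried its transcripts: the top 5% held 96.1%, 87.3%, 81.1%, 81.7% and 91.1% of UMIs, and single barcodes held up to 447. Macrophages of 1 gate with at least 2 Arg1 UMIs held 26.6, 61.1, 175, 66.3 and 106 CPM, and those without held 438, 237, 323, 700 and 404 CPM, lower with Arg1 in all 5. In the Cxcl13-bearing macrophages of the day 7 libraries, the immunoglobulin segments Ighv1-53 (10.88 and 8.65) and Igkv6-15 (3.84 and 3.05) stood highest. The others included the lipase Lipg (2.54 and 1.75), the T cell receptor segment Trbv17 (1.64 and 1.23) and Fcrl5 (1.48 and 1.10). The formyl peptide receptor Fpr2 (1.75 and 1.13) was also among them. Among macrophages of 1 gate Fcrl5, Fpr2 and Klra17 led, and neither immunoglobulin segment was among the 10 highest. Cxcl13-bearing macrophages were deeper, at medians of 5631.5 against 4613 UMIs in control day 7 and 3679 against 2226 in L-fuc day 7.

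Co-detection of the ligands in single macrophages varied by library. At 1000 UMIs, 11.9%, 21.5%, 15.7%, 14.5% and 19.1% of Cxcl9-bearing macrophages of 1 gate had Cxcl10, against 15.1%, 12.5%, 9.92%, 14.1% and 11.5% of those without Cxcl9. These intervals were apart in the 2 day 7 libraries and overlapped in the other 3. Cxcl13 was found in 4.59%, 12.5%, 14.5%, 15.8% and 10.9% of Cxcl9-bearing ones against 6.60%, 7.40%, 10.8%, 18.3% and 13.1%.

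Cxcr3, the shared receptor of Cxcl9 and Cxcl10, marks activated type 1 T cells. In T cells it stood at 64.6 CPM (56.8 to 73.2), 43.7 (39.7 to 48.1), 74.2 (69.9 to 78.6), 35.9 (21.9 to 55.4) and 52.0 (39.0 to 67.8). Control day 7 was below control day 0 and L-fuc day 7, whose intervals overlapped. The day 21 intervals, from 67 and 50 barcodes, overlapped each other and that of control day 7. A productive T cell receptor beta chain was found in 51 of the 67 barcodes and 22 of the 50. The day 7 log2 ratio was 0.76 (0.60 to 0.92) and that of day 21 0.53 (-0.23 to 1.35). Of the 5 members in T cells, 0 were past 2-fold at day 7, where 13.7% of genes were. At day 21 Cxcl9, Cxcl10 and Cxcl13 were, against 20.4% of genes. In L-fuc day 21 the T cell gate held 310, 198 and 294 UMIs of these, and T cells of 1 gate held 1, 6 and 0. In T cells of 1 gate the ratio was 0.77 (0.52 to 1.04) at day 7 and 0.79 (-0.05 to 1.68) at day 21. Per UMI of the T cell markers, which were 1402 CPM in control and 2441 CPM in L-fuc at day 7, it was -0.04, and at day 21 it was 2.27. The part of the T cell markers in the day 7 difference was not tested.

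The share of T cells with a Cxcr3 UMI was 29.8%, 20.7%, 34.6%, 20.9% and 40.0%. In tumor cells it was at most 0.821%, and none of the 498 tumor cells of control day 21 had one. A floor of 3 counts allows a share of up to 0.602% there, and the exact upper limit is 0.738%. Thinned to 1000 UMIs, the T cell share was 7.61%, 5.18%, 8.84%, 6.06% and 8.16%. In the day 21 libraries most Cxcr3 UMIs lay outside the T cell gate. T cells alone held 58.6%, 21.8%, 40.7%, 12.8% and 11.1% of them. Macrophages alone held 10.3%, 13.6%, 10.8%, 48.9% and 42.0%, and barcodes of no gate 4.48%, 17.4%, 10.1%, 36.9% and 42.3%. In macrophages of 1 gate these UMIs came to 6.88, 7.13, 10.7, 8.86 and 23.9 CPM. Those of L-fuc day 21 lay in 48 of 586 such macrophages, with up to 21 in 1 barcode. Thinned to 1000 UMIs, 1.41%, 1.09%, 0.881%, 0.719% and 0.722% of macrophages of 1 gate had a Cxcr3 UMI. At day 21, T cells of 1 gate held Cxcr3 at 73.5 CPM in control and 127 CPM in L-fuc. Those T cells numbered 47 of 1981 kept barcodes in control day 21 and 29 of 1236 in L-fuc day 21. Macrophages of 1 gate numbered 1117 and 586 there. The part of these barcode numbers in the UMI shares was not tested.

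T cells were split by a UMI of Foxp3 (Tregs) or, without it, of Cd8a or Cd8b1 alone (CD8) or of Cd4 alone (CD4). CD8 T cells of 1 gate held 84.9, 81.6, 105, 123 and 345 CPM of Cxcr3. CD4 T cells held 68.1, 68.2, 99.4, 9.85 and 114 CPM, and Tregs held 90.6, 54.7, 104, 377 and 83.7 CPM. The day 21 subsets hold 3 to 16 barcodes each. Remaining T cells held 58.5, 40.2, 92.4, 30.6 and 95.6 CPM. Between the day 7 libraries the intervals were apart for that remainder and overlapped for CD8, CD4 and Treg cells.

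**Figure D5:**
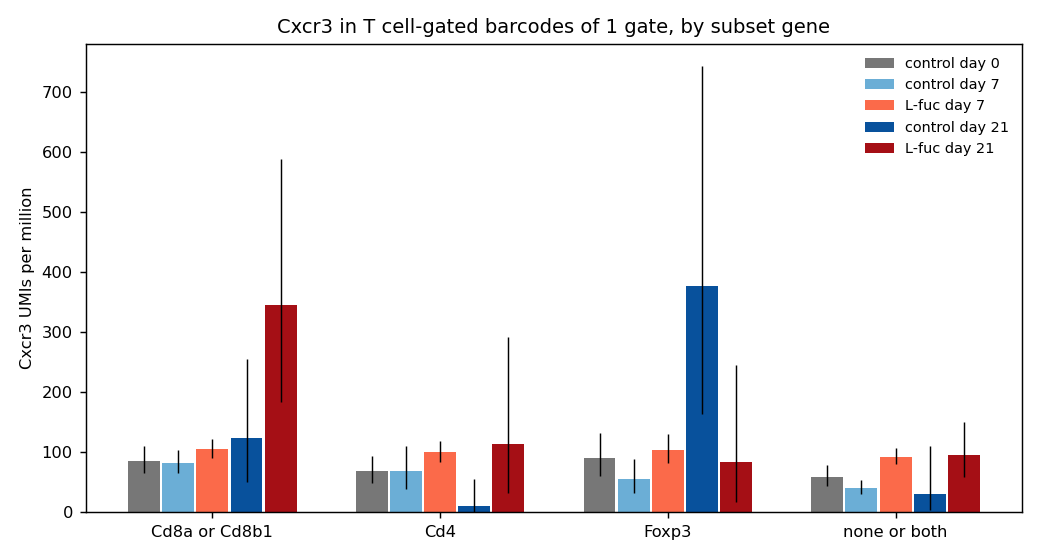
Cxcr3 in T cell subsets of 1 gate by library, as CPM with exact 95% intervals. The day 21 intervals are wide, since these libraries held 47 and 29 T cells of 1 gate.

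Barcodes with a productive T cell receptor beta chain in the matched receptor libraries serve as a second marker of T cells. They numbered 367, 843, 1002, 54 and 22 after the same filters. Of these, 364, 715, 979, 51 and 22 were among the 486, 1525, 1851, 67 and 50 barcodes of the T cell gate. In L-fuc day 7, those of a receptor sequence seen once held 96.0 CPM of Cxcr3 and those of sequences in at least 2 barcodes held 68.9 CPM, and outside other gates 121 (105 to 137) against 83.9 (71.3 to 98.3). In control day 7 the values were 52.2 and 51.0 CPM, and outside other gates 62.7 and 72.3 CPM. Outside other gates they were 64.6 and 73.4 CPM in control day 0. In control day 21 they were 63.1 and 89.8 CPM there, from 6 and 10 UMIs. The intervals outside other gates overlapped in each of these control libraries. L-fuc day 21 held 0 barcodes of repeated sequences. The type 1 lymphocyte list of 12 genes, which includes Ifng and Tbx21, was higher in L-fuc T cells at day 7 in all 12, 7 past 2-fold (5.06% of all genes were), with a median of 1.17. In T cells of 1 gate 11 of 12 were higher, 5 past 2-fold (3.89% of all genes were), with a median of 0.77 against -0.19 for all genes. In barcodes of 1 gate the summed T cell markers were higher at day 7, at 2021 CPM in control and 3203 CPM in L-fuc. In all barcodes of the T cell gate, Ifng was 75.4 CPM in control and 260 CPM in L-fuc at day 7. Of these barcodes, 48.7% in control and 45.2% in L-fuc also passed the macrophage gate. The part of the markers and of these double-gated barcodes in the day 7 list and Ifng values was not tested. At day 21 all 12 were past 2-fold lower (10.6% of all genes were), with a median of -2.22 against -0.09 for all genes, and in T cells of 1 gate 11 of 12 were (18.5% of all genes were). The summed T cell markers were also lower there, at 4240 CPM in control and 1271 CPM in L-fuc, and at 6965 and 2612 CPM in barcodes of 1 gate. The part of these markers, and of T-gated barcodes without a beta chain, in the list's values was not tested.

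Among barcodes of no gate, Cxcr3 was found in several small groups. In pDCs, gated by Siglech, Cox6a2 and Ccr9, it stood at 91.8 and 69.0 CPM at day 7 (68 and 31 barcodes). NK cells, gated by Ncr1, Klrb1c and Gzma, held 77.4, 19.6, 30.9, 0 and 0 CPM in 20, 335, 599, 6 and 9 barcodes. The first value is 5 UMIs, with an interval of 25.1 to 181 CPM, and the upper limits of the day 21 values are 310 and 95.4 CPM, so no difference can be shown there. In the B cell gate it was 7.84, 29.1, 87.5, 101 and 164 CPM. Most of the B-gated UMIs were in barcodes with at least 5 UMIs of Jchain, the joining chain of secreted immunoglobulin, at 18.5, 35.0, 98.2, 110 and 146 CPM from 14, 7, 12, 9 and 25 barcodes. The B-gated barcodes with fewer Jchain UMIs held 0, 21.7, 0, 0 and 365 CPM, from 0, 1, 0, 0 and 17 UMIs, so in L-fuc day 21 their level was the higher one (212 to 584 CPM, 5 barcodes, against 115 to 183 CPM). This split was chosen after the values were seen.

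Cxcr5 UMIs were most numerous at day 0, in T cells and in B-gated barcodes. In the B gate 33 UMIs gave 64.7 CPM (44.5 to 90.8) in 22.2% of 108 barcodes at day 0. In the later libraries that gate held 2, 1, 3 and 4 UMIs in 20, 21, 14 and 30 barcodes. By the Jchain split above, B-gated barcodes with under 5 Jchain UMIs held 81.6, 43.4, 38.1, 103 and 85.8 CPM. These came from 24, 2, 1, 3 and 4 UMIs in 94, 13, 9, 5 and 5 barcodes, and their intervals overlapped. Those with at least 5 held 41.6 CPM in 14 barcodes at day 0 and 0 UMIs in 7, 12, 9 and 25 later. The part of this make-up of the gate was not tested. In T cells Cxcr5 had 39, 11, 19, 0 and 3 UMIs, or 10.2, 1.11, 1.25, 0 and 2.89 CPM. Control day 0 was above the day 7 libraries. The day 7 ratio was 0.18 (-0.96 to 1.40), so these counts cannot show a difference, and no fold is given for day 21, where control held 0 UMIs. At day 0, CD4 T cells of 1 gate held 35.0 CPM.

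By the pattern over 20 units (5 libraries by 4 gates, which share libraries and depth), the genes most like Cxcl9 were Ifi44 (Pearson r of 0.94), an interferon-induced gene, Ccl12, a chemokine for monocytes (0.94), and Calhm6 (0.94), with Gm46224 and Sdc3 (0.93 each). For Cxcl10 they were led by Snx10 (0.96) and H2-DMb1 (0.84), and for Cxcl13 by Tnfsf13b (0.94), the B cell factor BAFF, and Npnt (0.93). Cxcr3 was nearest to Panx1 (0.95), Slc17a9 (0.95) and Thy1 (0.93), a T cell surface gene. For Cxcr5 the B cell genes Blk (0.97), Fcmr (0.97), Pax5 (0.96) and Ighd (0.95) were among the 5 nearest. The genes were ranked among 15986.

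The follicular and other chemokine lists were mixed. Of the follicular helper list of 15, 13 were compared in T cells at day 7, 10 higher in L-fuc and 4 past 2-fold higher (5.06% of all genes were), with a median of 0.80 against -0.13 for all genes. At day 21 3 were higher and 6 past 2-fold lower (10.6% of all genes were), with a median of -0.80 against -0.09. In T cells of 1 gate at day 7, 11 of 13 were higher and 0 past 2-fold higher (3.89% of all genes were). Their median was 0.58 against -0.19 for all genes. At day 21 6 of 10 were past 2-fold lower there (18.5% of all genes were), with a median of -1.22 against -0.21. In barcodes of 1 gate the summed T cell markers were 2021 and 3203 CPM in control and L-fuc day 7. At day 21 they were 6965 and 2612 CPM, and their part was not tested. Of the other CXC list of 14, 12 were compared in macrophages at day 7, 9 higher and 4 past 2-fold higher (8.61% of all genes were), with a median of 0.76 against -0.23. Among macrophages of 1 gate 6 of 11 were higher and 5 lower, with a median of 0.36 against -0.32. There 1 was past 2-fold higher (3.29% of all genes were) and 2 past 2-fold lower (2238 of 14303 genes were). In all barcodes of the tumor gate at day 7, 3 of 11 were higher and 8 lower, with a median of -1.20 against -0.04. Past 2-fold, 1 was higher (2.83% of all genes were) and 6 lower (5.11% were). Cxcl16, a membrane-bound chemokine, stood at 194 CPM in control and 357 CPM in L-fuc day 7 macrophages.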

How the data were processed

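Single-cell RNA and T cell receptor libraries of pooled CD45+ cells from SW1 tumors were analysed, 1 of each per condition. The authors aligned the reads to mm10 with Cell Ranger (3.0 in the processing notes, 7.1.0 in the matrix headers), which called the cells, and deposited raw UMI counts per gene and barcode, not normalized. Seurat 4.0 is named for their later steps. Counts per library ranged from 14439185 to 119047810 UMIs.

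Counts were filtered, gated and summed as stated with the results, in Python 3.11.15 (numpy 2.4.6, pandas 2.3.3, scipy 1.17.1, matplotlib 3.10.9). Shares have Clopper-Pearson intervals, levels exact Poisson intervals, and ratios exact conditional intervals. Genes were compared where both libraries together held 10 UMIs or more, with a pseudocount of 1 UMI. Scripts were tested on simulated data. Barcodes of 1 condition are not replicates, so nothing was tested. No doublet caller was run. Named genes were the members, the fixed lists, the 5 genes most correlated with each member over log2(CPM + 5), and the 10 highest in Cxcl9- or Cxcl13-bearing macrophages with at least 30 UMIs there. The members and lists were chosen with earlier results of these data known. Alternatives changed filters, gates, depth and scaling. Some genes that the rule names are not reported here. Receptor libraries were used only for each barcode's productive beta chain and for the number of barcodes per clonotype.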

Additional observations from a re-analysis of the deposited data

Results flagged for a closer look

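In 3 cases the main day 7 and day 21 ratios of L-fuc over control pointed in opposite directions. This difference between days was not tested, since each condition is 1 library. Cxcl10 in macrophages had a log2 ratio of 0.35 at day 7 and -0.45 at day 21. Its day 7 ratio was -0.089 with at least 10 C1q UMIs and -0.11 per UMI of the macrophage markers. At day 21 its ratio was below 0 under every alternative (-0.49 to -0.0031), so under those settings both days had the same sign. Cxcl13 in macrophages had 0.73 at day 7 and -0.84 at day 21. With at least 10 C1q UMIs its day 7 ratio was 0.0038 (-0.058 to 0.066). Cxcl10 in tumor cells had 0.99 at day 7 and -0.47 at day 21.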

How the results depend on the processing

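All values are log2 ratios of L-fuc over control unless said otherwise, and the cause of each shift was not tested. At day 7, Cxcl9 in macrophages was 1.82, and became 1.70 without barcodes of more than 1 gate, 1.76 without the top 5% of barcodes by UMIs, 1.54 thinned to 1000 UMIs, 1.16 with at least 10 C1q UMIs and 2.07 with median-of-ratios scaling. Under the same settings Cxcl10 (0.35) became 0.19 without those barcodes, 0.025 thinned, -0.089 with at least 10 C1q UMIs and 0.60 with median-of-ratios scaling, and Cxcl13 (0.73) became 0.50, 0.87 without the top barcodes, 0.98 thinned, 0.0038 with at least 10 C1q UMIs and 0.98 with median-of-ratios scaling. Cxcr3 in T cells (0.76) became 0.50 with at least 4 Cd3 UMIs. Scaling per UMI of the gate's markers, added after the data were seen, gave 1.36, -0.11, 0.27 and -0.038 for Cxcl9, Cxcl10, Cxcl13 and Cxcr3, and 1.34, -0.18, 0.13 and 0.11 in barcodes of 1 gate.

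At day 21, Cxcl9 (0.09) became 0.31 at a complexity of at least 0.8, 0.013 in barcodes of 1 gate and -0.70 thinned. Cxcl10 (-0.45) became -0.28 at that complexity and -0.37 with at least 10 C1q UMIs. Cxcl13 (-0.84) became -0.60 at that complexity, -0.96 in barcodes of 1 gate, -0.54 without the top 5%, -1.01 without shared barcodes and -1.37 thinned. Cxcr3 (0.53) became -1.16 thinned, from few UMIs. Marker scaling gave 0.51, -0.035, -0.42 and 2.27, and 0.40, -0.0031, -0.57 and 2.20 in barcodes of 1 gate. Over the members, 60 of 102 alternatives stayed within the counting error, and 91 kept their direction.

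Genes past 2-fold numbered 3334 in macrophages at day 7 and 5676 with no filter, and 1998 and 3858 in T cells. At day 21 they numbered 1151 in macrophages, 549 with at least 30 UMIs and 3634 with no filter, and 2069 in T cells, 484 thinned, 1009 with at least 30 UMIs and 3812 with no filter. No ratio exists for Cxcr5 in T cells at day 21. No paired analysis was possible because each condition is 1 pooled library. With 67 and 50 T cells at day 21, receptor levels there rest on few UMIs.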
